A study of Mus musculus with 2 samples.

Results

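Kupffer cells, the resident macrophages of the liver, were picked out of scRNA-seq libraries of liver non-parenchymal cells (NPCs) from 1 normal and 1 fibrotic mouse. The members were chosen by their own unique molecular identifier (UMI) counts: at least 20 UMIs of Clec4f, Vsig4 and Cd5l together per 10000 UMIs of the cell (called the score here), at least 1 UMI of Clec4f, at most 2 UMIs of Trem2 and Gpnmb, under 25 per 10000 of the endothelial genes Kdr, Ptprb and Flt4, at most 2 UMIs of the stellate cell genes Lrat and Reln, and at most 1 of Cd79a and Cd3e, which mark B and T cells. Of 13603 cells that showed more than 200 genes and kept mitochondrial genes below 10% of their UMIs, 1081 met all of these: 449 of 7471 normal and 632 of 6132 fibrosis cells, with 2358525 and 1900566 UMIs. Both mice were C57BL/6 males, and the series' design text gives their age at injection as 8 weeks. The normal mouse was given olive oil, and the fibrotic mouse got CCl4, dissolved at 15% in olive oil and dosed at 0.6 µl for each g of the mouse, 2 times a week for 6 weeks, with its liver taken 48 h after the last dose. Each group is 1 mouse and 1 library, so no difference given here has a biological replicate and no p-value can be had. Intervals in parentheses are exact 95% intervals (Poisson for a level, conditional for a ratio, binomial for a share) and cover counting error only.

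Kupffer cells line the liver sinusoids, where they take up bacteria, dying cells, old erythrocytes and iron from portal blood. They are known to keep a gene programme of their own, with the lectin Clec4f, the complement receptor Vsig4 and the secreted protein Cd5l, and the long-resident cells also carry Timd4, a receptor for phosphatidylserine on dying cells. During liver injury, macrophages that derive from monocytes enter the tissue, and those that gather at scars are known for Trem2 and Gpnmb.

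Most members of the fibrosis library rested on few UMIs of the genes that chose them. Normal members held a median of 4426 UMIs, of which 43 belonged to the score and 19 to Clec4f. Fibrosis members held a median of 1483 UMIs, while all kept cells of that library held a median of 5776, and only 5 UMIs belonged to the score and 2 to Clec4f. Droplets can also hold free RNA of the suspension, for which B and T cells give a measure. In the fibrosis library 94 of 369 B cells (25.5%, 21.1 to 30.2) and 24 of 183 T cells (13.1%, 8.59 to 18.9) reached a score of 20, whereas in the normal library 3 of 487 (0.616%) and 3 of 569 (0.527%) did. At a score of 80, 1 B cell and 0 T cells of the fibrosis library were left, and 0 of 183 T cells allows a share of up to 1.64%. The members are therefore also described in 2 ranges, split at a score of 80 after the data had been seen. High-score members number 300 normal and 119 fibrosis cells, and low-score members, from 20 to 80, number 149 and 513. These are ranges of a score and not cell types, and 79 normal and 24 fibrosis cells lay between 80 and 100.

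**Figure D1:**
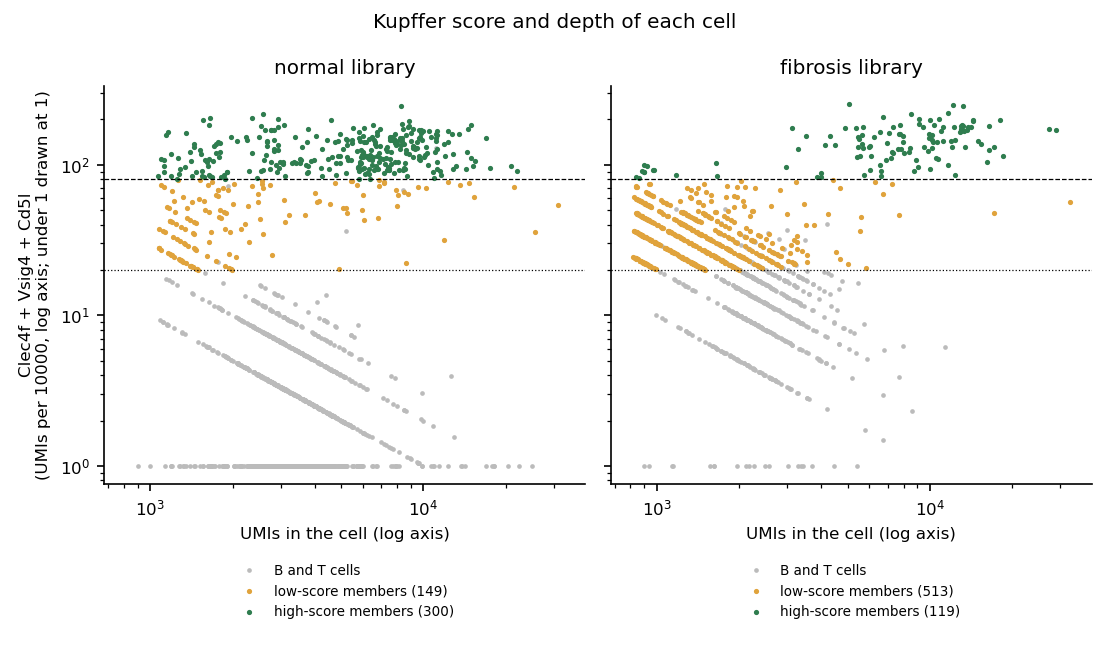
Each point is 1 cell, with its UMIs on the x axis (log) and its summed Clec4f, Vsig4 and Cd5l in UMIs per 10000 on the y axis (log, values under 1 drawn at 1). Grey points are B and T cells that are not members, and the dotted and dashed lines stand at 20 and 80. In the fibrosis library the 513 low-score members lie among shallow cells, at a median of 1366 UMIs, on the same steps of a few UMIs as the B and T cells, and the 119 high-score members are mostly deep, at a median of 8025 UMIs.

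Markers that the rule did not use separated the 2 ranges. Timd4 lies on chromosome 11 from 46810786 to 46844333 (GRCm38). Its level was 4.52 (4.22 to 4.84) UMIs per 10000 in normal and 4.35 (3.96 to 4.77) in fibrosis high-score members, against 0.0704 and 0.281 in T cells of the 2 libraries. In low-score members it stood at 1.96 (1.60 to 2.39) for the normal and 0.834 (0.652 to 1.05) for the fibrosis mouse. Folr2, a folate receptor of resident macrophages, stood at 9.87 and 7.03 in high-score members, and at 5.19 and only 0.799 in low-score members. C1qa, a chain of complement C1q that macrophages secrete, was at 49.2 and 40 in high-score members and at 28.6 and 10.4 in low-score members, beside 0.969 and 4.62 in T cells. Of the 6 markers of the label, Clec4f, Vsig4 and Cd5l chose the cells, and Timd4, Folr2 and C1qa, which did not, were above free RNA in the high-score members of both libraries. Of these members 0 lacked C1q altogether. Of the low-score members, 5 of 149 normal and 19 of 513 fibrosis cells had no C1q UMI. The fibrosis low-score members also carried RNA of other lineages, each at its highest among the members. Stellate and fibroblast markers summed to 28.0 (26.9 to 29.1) UMIs per 10000, neutrophil markers to 21.8, B cell markers to 23.7 and sinusoidal endothelial markers to 44.2. T cells of the same library held 13.9 of the stellate, 0.721 of the neutrophil, 10.2 of the B cell and 25.9 of the endothelial markers. Low-score members of the fibrosis library are called by their rule and not by a cell type. Just outside the limit of 20, 152 fibrosis cells scoring 15 to 20 had a median C1q of 15.6 per 10000, and just inside, 146 cells scoring 20 to 25 had 23.4, while 24 cells scoring 80 to 100 had 59.7.

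**Figure D2:**
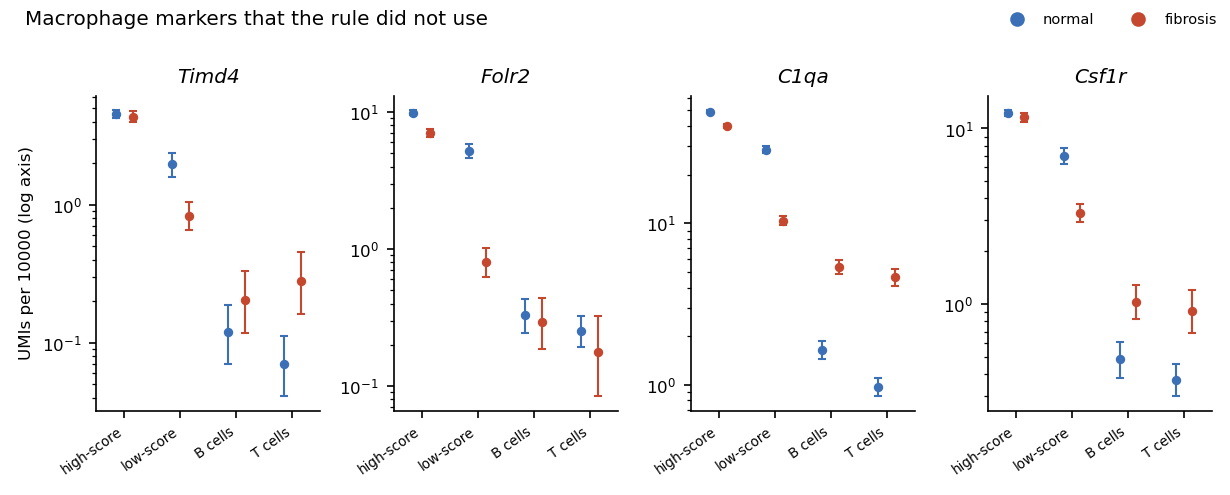
Levels of 4 macrophage genes outside the rule, in UMIs per 10000 on log axes, in high-score members, low-score members, B cells and T cells of the normal and fibrosis libraries. Bars are exact 95% Poisson intervals. High-score members of both libraries sit close together and far above B and T cells, as for Csf1r at 12.2 and 11.6, while fibrosis low-score members sit lower, at 3.32.

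By the rule, Kupffer cells made up 6.01% (5.48 to 6.57) of normal and 10.3% (9.56 to 11.1) of fibrosis cells. Among high-score members the order was the other way, 4.02% (3.58 to 4.49) of normal and 1.94% (1.61 to 2.32) of fibrosis cells. A limit of 40 also turned the order, but the shares lay close together, at 5.17% (386 of 7471 cells) and 4.60% (282 of 6132). No interval was taken for them. With no limit on Trem2 and Gpnmb high-score cells made up 4.18% (3.73 to 4.65) and 4.24% (3.75 to 4.77), so the order among them rests on that limit. The libraries have 15 cell barcodes in common, and 1 normal and 3 fibrosis members hold one of them. The limit on Trem2 and Gpnmb also took out very different parts of the 2 libraries. Among cells with a score of at least 80 and a Clec4f UMI, 12 of 321 normal cells (3.74%, 1.95 to 6.44) and 153 of 290 fibrosis cells (52.8%, 46.8 to 58.6) were over it. Of the fibrosis cells over it, 141 met every other criterion. They held from 3 to 759 UMIs of the 2 genes with a median of 7, and 60 of the 141 held 3 to 5. Per 10000 UMIs their median was 6.09, beside 1.91 in T cells of that library, and they were deep, at a median of 11942 UMIs. Since the tissue was dissociated and loaded as a suspension, a share of a library cannot be told apart from how well each cell type survived the preparation.

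Over all members, genes that reached 1 UMI per 10000 in the normal or the fibrosis members were compared, and a gene was called at a ratio of 2 or more (or 0.5 or less) with an interval that leaves out 1. The 12 genes of the rule were left out. Of 2233 genes, 177 were called higher in the fibrosis members (7.93%) and 128 lower (5.73%), with a median log2 ratio of 0.17 over all. Calls were thus 58.0% higher, and this split depends on the scaling: it was 40.5% with TMM, 39.0% with median-of-ratios scaling and 11.4% per cell. TMM and median of ratios moved every log2 ratio by -0.22 and -0.24. Of the 177 higher genes 147, and of the 128 lower genes 77, reached 1 per 10000 only in the library where they were higher, and that limit favours a call for such genes. The largest ratios among genes that moved less in B, T and NK cells were those of matrix genes. Col1a2, a chain of type I collagen, went from 0.0254 to 3.92 UMIs per 10000, Col6a3 from 0.00848 to 1.12, Col1a1 from 0.0339 to 3.00 and Col3a1 from 0.0382 to 1.82. The collagen-binding proteoglycans Lum and Dcn, at 1.29 and 4.44 in the fibrosis members, along with Col14a1 and Ccdc80, followed. Fibrosis T cells held these genes as well, with Col1a2 at 3.36, Col6a3 at 1.11, Col1a1 at 2.21, Col3a1 at 1.65, Lum at 1.32 and Dcn at 3.06. All of these matrix genes were under 1 in the normal members, as was Hdc. Hdc, the histamine-forming enzyme of granulocytes, had a ratio of 15.7 (9.42 to 27.9), from 0.0678 to 1.06, and the neutrophil list above stood at 21.8 in the low-score cells. On the lower side the leading genes were the hepatocyte genes Rbp4 (0.113), Ttr (0.255) and Ambp (0.298), the detoxifying enzyme Glo1 (0.366), the class II antigen presentation genes Cd74 (0.336), H2-Aa (0.366) and H2-Eb1 (0.382), the protease Adamdec1 (0.399) and Apoe (0.416). Normal T cells held Rbp4 at 7.79 and Ttr at 20.3, above the normal members with 5.54 and 15, and Ambp, at 2.25 in T cells and 1.98 in the members, was likewise no lower in T cells.

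Among high-score members, 48 of 2080 genes were called higher in the fibrosis library (2.31%) and 102 lower (4.90%), with a median log2 ratio of 0.16. Higher calls were 32.0% of all, 24.7% with TMM, 25.8% with median of ratios and 82.7% per cell, and the first pair of scalings moved the log2 ratios by -0.13 and -0.11. Of the 177 genes called higher over all members, 36 were among these 48, that is 20.3% of the former and 75% of the latter. Of the 128 called lower, 91 were among the 102, which is 71.1% and 89.2%. Most calls lay close to free RNA: 33 of the 48 higher and 94 of the 102 lower genes stood under 3 times the lower of the B cell and T cell levels in the library where they were higher. Only in the library where they were higher did 32 of the 48 and 77 of the 102 reach the limit of 1, which favours their call. This left 15 higher and 8 lower genes, of which 22 had no more than 25% of their UMIs in 3 cells. The Cxcl13 gene, a chemokine that draws B cells, was the one set aside, at 3.41 and 1.03 UMIs per 10000 with 31.1% of its normal UMIs in 3 cells.

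**Figure D3:**
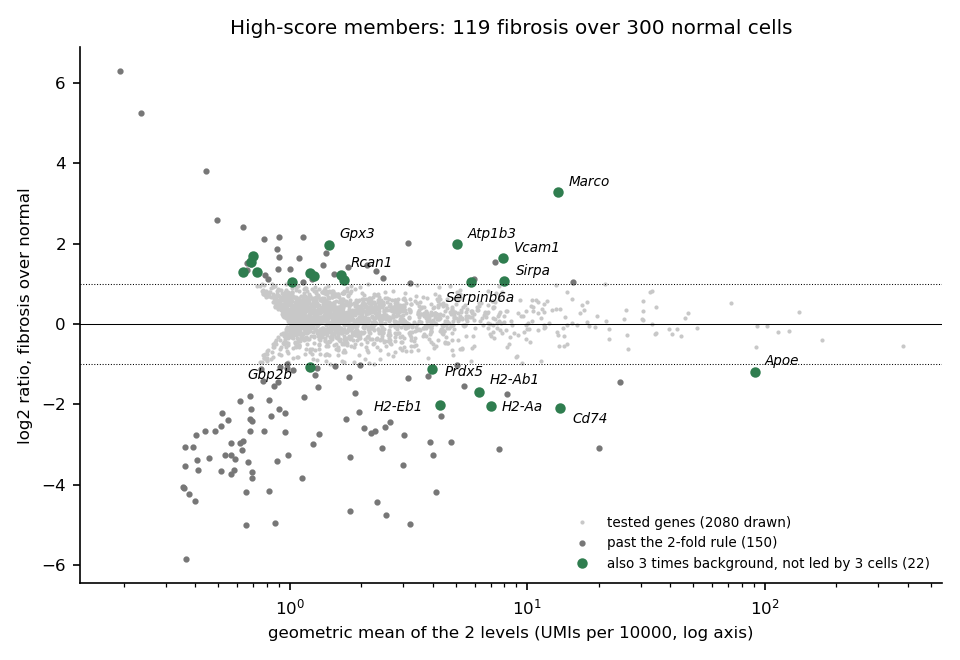
Each point is 1 of 2080 genes in high-score members, with the geometric mean of its levels in the 2 libraries on the x axis (UMIs per 10000, log) and the log2 ratio of fibrosis over normal on the y axis. Dark grey points pass the 2-fold rule and green points also stand at 3 times the level in B or T cells or more. Marco is the highest of the green points with a ratio of 9.67, and H2-Aa, H2-Eb1, H2-Ab1 and Cd74 lie together between 0.234 and 0.307.

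Marco, a scavenger receptor for bacteria and particles, had the largest ratio of these 22 genes. It lies on chromosome 1 from 120474538 to 120505024 and stood at 4.33 (4.04 to 4.64) UMIs per 10000 in the 300 normal high-score cells and at 41.9 (40.7 to 43.2) in the 119 fibrosis cells. Single normal cells ran from 0 to 45.6 with a median of 0, and fibrosis cells from 0 to 256 with a median of 28.3, so the ranges overlap. The lower quartile of fibrosis cells, 11.2, lay above the upper quartile of normal cells, 4.22, and 115 of 119 fibrosis cells held at least 1 UMI, against 133 of 300 normal cells. The ratio was 9.67 (8.96 to 10.4). Marco was also present as free RNA in the fibrosis library, at 2.88 in T and 3.88 in B cells, which is far under the level of the high-score members. In the fibrosis library it was higher at higher scores, with 13.4 at scores of 60 to 80, 31.5 at 80 to 160 and 54.2 from 160 on. In the normal library it stood at 3.93, 4.37 and 4.10 in the same ranges. In the 141 fibrosis cells over the Trem2 and Gpnmb limit Marco stood at 14.2, and with such cells put back the ratio was 5.74.

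Vcam1, an adhesion molecule for leukocytes (chromosome 3, 116110020 to 116129688), stood at 4.46 (4.16 to 4.78) in normal and 14.0 (13.3 to 14.7) in fibrosis high-score cells, a ratio of 3.13 (2.87 to 3.41). Normal cells ran from 0 to 25.4 with a median of 2.59 and fibrosis cells from 0 to 42.4 with a median of 11. The lower quartile of fibrosis cells, 5.58, was above the normal median and just under the normal upper quartile, 6.25. Atp1b3, a beta subunit of the sodium pump, had a ratio of 3.98 (3.56 to 4.45), from 2.54 to 10.1 per 10000, and it was spread unevenly. T cells of the fibrosis library held 4.97 of it and B cells 2.07. In the fibrosis library 18 of 119 cells stood at 20 or more per 10000 and held 69.8% of its UMIs, and the other 101 cells stood at 3.67. In the normal library 2 of 300 cells reached 20 and the other 298 stood at 2.29, so the cells under 20 differed by less than 2-fold. The 18 cells had Marco at 44.7, Vcam1 at 20.5 and the chemokine Ccl24 at 12.2, beside 41.3, 12.6 and 6.03 in the other fibrosis cells. They were picked by Atp1b3 after it had been seen, and these levels are a description.

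The remaining genes of the higher side were mostly low. Of the 15 higher genes, 8 (Gpx3, Kcnj16, Gfra2, Ncapg2, Cdk14, Tspan4, Hgsnat and Tfrc) were under 1 per 10000 in normal cells and entered through the fibrosis library, where they are high, so their call is helped by the limit. Sirpa, the receptor for the signal CD47 that restrains phagocytosis, went from 5.51 to 11.5 (ratio 2.09, 1.92 to 2.27), with cell medians of 4.63 and 10.8, and here too the lower quartile of fibrosis cells, 8.34, lay above the upper quartile of normal cells, 6.89. The protease inhibitor Serpinb6a stood at 4.01 and 8.33, with cell medians of 3.32 and 7.55. Fibrosis T cells held Sirpa at 2.79 and Serpinb6a at 2.20. Gpx3, a secreted glutathione peroxidase, had a ratio of 3.94 (3.20 to 4.86) from 0.737 to 2.90, and was found in 91 of 119 fibrosis and 92 of 300 normal cells. The potassium channel gene Kcnj16 (0.390 and 1.25), the GDNF family receptor Gfra2 (0.401 and 1.17), the condensin gene Ncapg2 (0.407 and 1.0) and the kinase Cdk14 (0.466 and 1.14) had ratios from 2.44 to 3.21. Tspan4, a tetraspanin, stood at 0.786 and 1.88, the calcineurin regulator Rcan1 at 1.07 and 2.5, the lysosomal acetyltransferase gene Hgsnat at 0.840 and 1.92, Hacd4 at 1.16 and 2.45 and the transferrin receptor Tfrc at 0.716 and 1.47. Their ratios ran from 2.05 for Tfrc to 2.39 for Tspan4. Tfrc passed the rule in 5 of 15 alternatives, Hacd4 in 8, Hgsnat in 10, Ncapg2 and Gfra2 in 11, and Kcnj16, Cdk14 and Tspan4 in 12. In thinned cells Hgsnat (1.47) and Hacd4 (1.94) fell short of 2 and lost their call. Ncapg2 (2.14), Gfra2 (2.10) and Kcnj16 (2.18) lost it there as well, with ratios still above 2. Sirpa (1.91 with TMM), Serpinb6a (1.90), Hacd4 (1.94) and Tfrc (1.87) were short of 2 under both other scalings of the summed counts. Without the limit on Trem2 and Gpnmb 8 of the 15 higher genes lost their call: Gfra2 (1.54), Cdk14 (1.61), Rcan1 (1.78), Hgsnat (1.89), Tspan4 (1.96), Hacd4 (1.7), Tfrc (1.39) and Kcnj16, whose ratio was 2.16 but which no longer met every limit of the call.

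**Figure D4:**
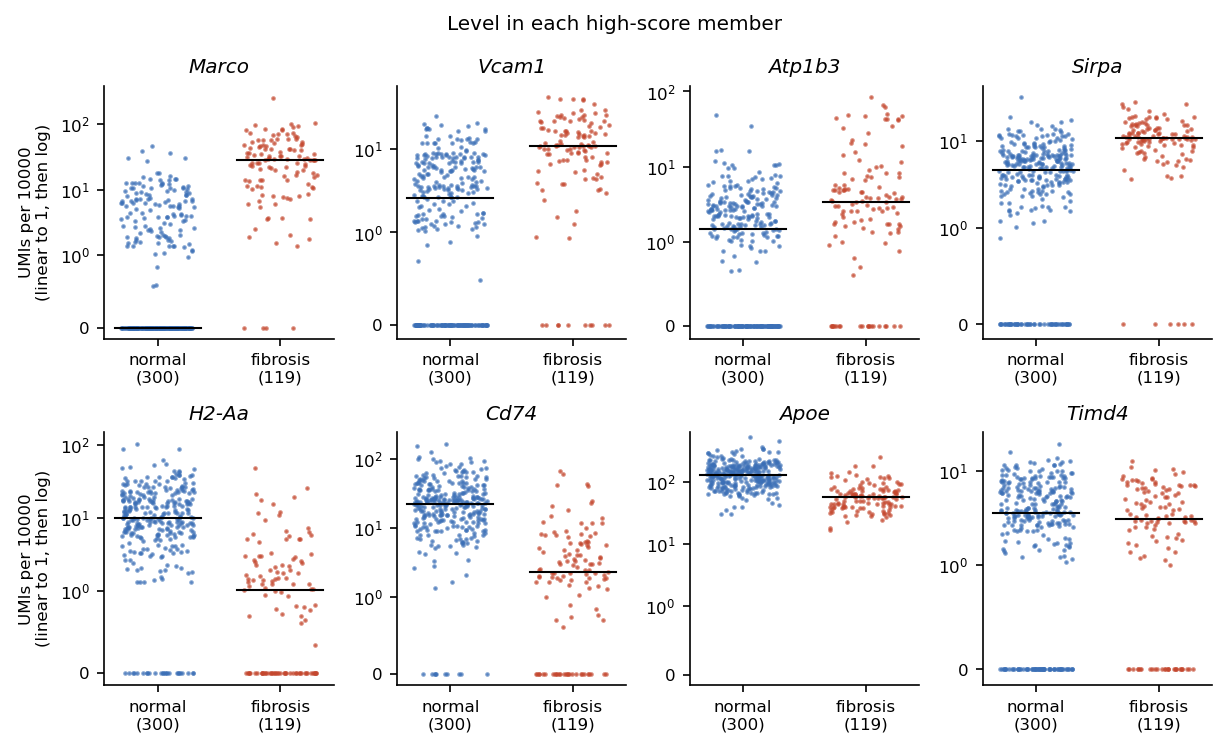
Level of 8 genes in each of the 300 normal and 119 fibrosis high-score members, in UMIs per 10000 (linear to 1, then log), with points spread sideways at random and a black line at the median. Marco, Vcam1 and Sirpa sit higher in fibrosis cells, Atp1b3 has a separate upper group of fibrosis cells, H2-Aa and Cd74 sit lower in most but not all fibrosis cells, and Timd4 lies at medians of 3.60 and 3.08.

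The class II chains H2-Aa, H2-Ab1 and H2-Eb1 and their partner Cd74 were lower in the fibrosis cells, and 3 other tested genes of the list were not called. Class II molecules, made of an alpha and a beta chain, show peptides to CD4 T cells, and Cd74 is the chain that guides them through the cell. H2-Aa, an alpha chain (chromosome 17, 34282744 to 34287823), stood at 14.3 (13.8 to 14.9) in normal and 3.45 (3.1 to 3.83) in fibrosis high-score cells. Normal cells ran from 0 to 103 with a median of 10.2, and fibrosis cells from 0 to 47.8 with a median of 1.06, so the ranges overlap, but the upper quartile of fibrosis cells, 2.54, lay under the lower quartile of normal cells, 5.47. The ratio was 0.241 (0.216 to 0.270) for H2-Aa, 0.307 (0.274 to 0.344) for the beta chain H2-Ab1, 0.247 (0.214 to 0.284) for the beta chain H2-Eb1 and 0.234 (0.215 to 0.253) for Cd74, which went from 28.3 to 6.61. H2-DMa and H2-DMb1, the chains of the molecule that loads the peptides, had ratios of 0.550 (0.458 to 0.658) and 0.886 (0.717 to 1.09), and the co-stimulatory gene Cd86 had 1.06. Of 11 genes of the class II and co-stimulation list, 7 were tested, 0 were called higher and 4 lower (2.31% and 4.90% over all genes), and their median log2 ratio was -1.70, beside 0.16 over all genes. The regulator Ciita was at 0.217 and 0.222, under the limit for the comparison. T cells, which lack these genes, held H2-Aa at 1.32 and 1.39 in the 2 libraries, which is below the members of either. B cells, which use them, stood at 28.4 and 26.6. Leaving out the 3 leading cells of each library gave a ratio of 0.145 for H2-Aa, and all of 15 alternatives left H2-Aa, H2-Ab1, H2-Eb1 and Cd74 past the rule. The high-score fibrosis cells over the Trem2 and Gpnmb limit had H2-Aa at 2.95.

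Class II promoters are known for a conserved X box and Y box that act together, and the windows of 3 of these genes are shown to set the lower H2-Aa and H2-Eb1 beside H2-DMb1, whose interval of the ratio held 1. RefSeq promoters (GRCm38.p6) were found for 4 of 5 class II genes looked up. Each line gives the 120 bases before the gene's start, 5′ to 3′ in the direction of the gene, with capitals for the Y box core ATTGG (or CCAAT on the other strand) and for CTNGNAACT on either strand, letters of the X box that were chosen after these windows had been read.
H2-Aa: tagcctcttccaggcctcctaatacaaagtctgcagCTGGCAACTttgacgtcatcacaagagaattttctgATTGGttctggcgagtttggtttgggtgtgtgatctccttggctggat
H2-Eb1: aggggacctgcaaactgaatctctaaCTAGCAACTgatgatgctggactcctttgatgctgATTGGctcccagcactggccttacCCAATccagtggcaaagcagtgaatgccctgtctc
H2-DMb1: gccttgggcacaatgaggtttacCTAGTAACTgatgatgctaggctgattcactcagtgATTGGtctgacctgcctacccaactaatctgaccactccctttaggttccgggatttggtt
The windows are chr17:34287824-34287943 on the minus strand for H2-Aa, chr17:34305747-34305866 on the plus strand for H2-Eb1 and chr17:34153071-34153190 on the plus strand for H2-DMb1. All 3 hold both motifs, with the X box letters ahead of the Y box core. The Y box core was found in 6994 of 32851 promoter windows of this length (21.3%), the X box letters in 515 (1.57%) and both in 113 (0.344%). Neither of the 2 windows of H2-DMa holds either. A match is a description of letters and says nothing of what binds there.

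Apoe, the apolipoprotein that macrophages secrete, was the most abundant gene of the lower side. It lies on chromosome 7 from 19696244 to 19701310 and stood at 137 (135 to 138) in normal and 60 (58.5 to 61.5) in fibrosis high-score cells. Normal cells ran from 30.3 to 519 with a median of 128, and fibrosis cells from 16.5 to 248 with a median of 56.8, and the upper quartile of the latter, 73.6, lay under the lower quartile of the former, 95. T cells held 27.9 and 23.6 of it and fibrosis B cells 29.3. The ratio was 0.439 (0.427 to 0.451), and it moved with the limit on Trem2 and Gpnmb: cells over the limit had Apoe at 159, and with them put back the ratio was 0.905. Of the 22 genes of lipid handling, 17 were tested, 4 were called higher and 2 lower (2.31% and 4.90% over all genes), with a median log2 ratio of 0.46 beside 0.16 over all. The higher ones were Fabp4 (0.504 and 1.60), the desaturase Scd2 (0.770 and 2.63), the fatty acid transporter Cd36 (1.56 and 6.30) and the cholesterol ester hydrolase Nceh1 (0.624 and 1.62), and fibrosis T cells held 2.36, 1.55, 3.09 and 0.563 of them. Fabp4, Scd2 and Nceh1 entered through the fibrosis library alone, so the count of 4 is no support for a difference of the list. Lpl, the lipoprotein lipase, had a ratio of 1.96 (1.83 to 2.09) from 9.38 to 18.4, and the cholesterol exporter Abca1 1.94 (1.74 to 2.16). Apoc1 was lower, at 40.5 and 14.9, and T cells held 23.4 and 1.28 of it. The peroxidase Prdx5 (0.456, 0.399 to 0.521) and the interferon-induced Gbp2b (0.476, 0.371 to 0.605) were also lower, from 5.87 to 2.68 and from 1.76 to 0.839. Gbp2b entered through the normal library alone. Prdx5 lost its call in 3 of 15 alternatives and Gbp2b in 4, and the ratio of Gbp2b ran from 0.243 with no limit on Trem2 and Gpnmb to 0.675 per cell.

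Most Kupffer identity genes tested in high-score cells were not called, as was the case for genes at large, of which 2.31% were called higher and 4.90% lower. High-score cells were picked by 3 Kupffer identity genes, and in both libraries Timd4 and Folr2 were higher at higher scores. In the fibrosis library they stood at 0.545 and 0.475 at scores of 20 to 40, and at 5.67 and 8.82 from 160 on. The ratios therefore describe cells with a high score, and cannot show whether fibrosis Kupffer cells at large kept these genes. Of 20 Kupffer identity genes, 3 belong to the rule and 15 others were tested, with 1 called higher (Marco), 0 lower and a median log2 ratio of 0.19. Over all members the same list had Marco higher and Folr2 (0.474), Cd163 (0.472) and Fabp7 (0.478) lower, with a median of -0.25. Among high-score cells Timd4 had a ratio of 0.962 (0.856 to 1.08), the iron exporter Slc40a1 1.07 (1.03 to 1.12), Clec1b 1.24 (1.12 to 1.37), the CSF1 receptor Csf1r 0.951 (0.886 to 1.02) and the receptor Adgre1, known as F4/80, 1.77 (1.62 to 1.94). Folr2, at 0.712 (0.652 to 0.776), and the haemoglobin receptor Cd163, at 0.645 (0.576 to 0.720), were lower but short of the 2-fold limit. The rule's own genes are given as a description: Clec4f at 53.9 and 49.4, Vsig4 at 21.0 and 24.2, Cd5l at 51.6 and 78.1. Cd207, a lectin, was under the limit of the comparison and so not tested, and it was lower in the fibrosis cells, with 146 UMIs in normal (0.792 per 10000, 0.668 to 0.931) and 10 in fibrosis cells (0.0964, 0.0462 to 0.177), and fibrosis T cells held 0.141. This too turns on the limit on Trem2 and Gpnmb, since the 141 fibrosis cells over it had Cd207 at 0.983 and Timd4 at 2.08, and with them put back the ratio of Timd4 was 0.636. Of 18 transcription factors of macrophages and Kupffer cells, 14 were tested and 0 were called. The nuclear receptor Nr1h3 had 1.19 (1.08 to 1.31), Spic 1.78 (1.48 to 2.13) and Id3 0.780 (0.711 to 0.856). Of 20 receptors for niche signals and their targets, 12 were tested and 0 were called.

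Genes of uptake and clearance had calls in the scavenger, iron and complement lists, read against the same 2.31% and 4.90% over all genes. Of 22 scavenger, apoptotic cell and lectin receptors, 17 were tested and Marco and Cd36 were called higher, with a median log2 ratio of 0.42. Msr1 had 1.33, Mertk 1.53 (1.36 to 1.72), Axl 1.23 and the mannose receptor Mrc1 1.48, from 9.90 to 14.7 with 5.12 in fibrosis T cells. Of 6 Fc receptors 6 were tested and 0 called. Of 17 genes of iron and haem handling 13 were tested and only Tfrc was called, which entered through the fibrosis library, while the haem oxygenase Hmox1 had 1.13 (1.06 to 1.20). Of 16 complement genes 11 were tested, with Cd55 called higher and C3 lower. Both stood under 3 times the lower of the B cell and T cell levels in the library where they were higher, and so close to free RNA. The C1q chains had ratios of 0.813 for C1qa, 0.649 for C1qb and 0.846 for C1qc. Of 22 lysosomal genes 19 were tested and 0 called, with a median log2 ratio of 0.36. Among them Ctsd had 1.99 (1.89 to 2.10) and Lgmn 1.78 (1.71 to 1.85).

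Inflammatory, stress and matrix lists held 1 to 4 calls each, or 0, out of few tested genes, beside 2.31% higher and 4.90% lower over all genes. Of 27 chemokines, cytokines and growth factors, 11 were tested, with the neutrophil chemokine Cxcl2 higher (1.07 and 2.86, beside 1.51 in fibrosis T cells) and Cxcl13 lower. Of 24 interferon response genes 12 were tested and only Cxcl10 was called, at 0.515 and 1.20, beside 1.71 in fibrosis T cells, and it too entered through the fibrosis library. Of 16 Toll-like receptor and inflammasome genes 1 reached the limit for testing. Of 11 MHC class I genes 7 were tested and 0 called, and H2-K1 stood at 20.7 and 22.0. Of 20 immediate early and stress genes 18 were tested: Nfkbia and Dusp1 were higher (2.17 and 2.06) and the heat shock genes Hspa1a and Hspa1b lower (0.184 and 0.153). T cells differed in the same way, with Hspa1a at 6.25 and 0.457 and Dusp1 at 6.16 and 12.7. Of 16 antioxidant genes 12 were tested and Cat was lower, but it stood under 3 times the lower of the B cell and T cell levels of the normal library. Of 16 matrix protease genes 5 were tested, and Mmp12 and Sparc were higher, at 1.66 and 2.40 in fibrosis cells beside 2.51 and 3.92 in T cells. Of 18 genes of scar-associated macrophages 9 were tested, with Mmp12 and Anxa2 called and Spp1 at 1.38 and 1.54. Anxa2 too stood under 3 times the lower of the B cell and T cell levels, in the fibrosis library. Of 20 cell cycle genes 6 were tested and 0 called, with Mki67 at 1.15 and 1.38.

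Markers of other cells moved with the library in high-score members as well. All 11 hepatocyte markers were called lower (4.90% over all genes), with sums of 170.3 per 10000 in normal and 18.9 in fibrosis cells, and T cells held 262 and 26.7. Of 10 stellate and fibroblast markers 2 belong to the rule. Dcn, Col1a1 and Col1a2 were called higher, and they entered the comparison only through their fibrosis level, which favours such a call. The whole list summed to 0.803 and 7.81, with 13.9 in fibrosis T cells, and each of the 10 had at least 1 UMI in the members of both libraries. Erythroid markers summed to 42.3 and 4.73, with 4 of 4 tested genes lower, and T cells held 41.9 and 1.0. Monocyte markers summed to 28.9 and 24.4, B cell markers to 7.08 and 4.3, neutrophil markers to 2.02 and 0.916 with Ly6g at 0 in both (3 counts allow up to 0.0163 and 0.0289), T and NK markers to 0.938 and 0.386, dendritic cell markers to 0.434 and 0.964 and endothelial markers to 12.4 and 15.8. The part of this RNA in the results above was not tested.

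Shares of cells were taken at an equal depth of 1000 UMIs a cell. A Timd4 UMI was held by 35% (29.6 to 40.7) of 300 normal and 34.5% (25.7 to 44.2) of 110 fibrosis high-score cells, where 9 fibrosis cells were too shallow to enter. At full depth it was 77.7% and 76.5%, and T cells at the equal depth had 0.705% and 5.23%. A Marco UMI was held by 17.7% of normal and 84.5% of fibrosis cells (44.3% and 96.6% at full depth), beside 1.41% and 26.7% of T cells. For H2-Aa the shares were 65.0% and 18.2% (91.7% and 63.0% at full depth), with 10.8% and 9.30% of T cells. Cd207 was found in 7.33% of normal and 0.909% of fibrosis cells, the latter 1 cell and no more than the 1.74% of fibrosis T cells. Folr2 was in 59.7% and 40.9% (T cells 3.17% and 1.74%) and Cd163 in 39.7% and 29.1% (T cells 1.76% and 2.33%). Mrc1 was in 58.3% and 80%, beside 14.8% and 41.9% of T cells. The monocyte receptor Ccr2 (1.33% and 2.73%) was no more frequent than in B cells of the same libraries, at 1.85% and 4.36%. Cx3cr1, another monocyte receptor, was in 1.0% (0.207 to 2.89) and 3.64%, beside 0.823% and 4.07% of B cells. Lyve1 was in 1.33% and 6.36%, beside 1.06% and 4.65% of T cells.

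High-score members were set beside the macrophages from which the Trem2 and Gpnmb limit parts them. Macrophages with at least 3 UMIs of Trem2 and Gpnmb and at least 20 per 10000 of C1q number 23 normal and 557 fibrosis cells, and all 141 high-score cells over the limit are among them. In the fibrosis library Timd4 stood at 4.35 in high-score members, 2.08 in the cells over the limit and 0.603 in all 557 macrophages, and Marco stood at 41.9, 14.2 and 4.58. In the same order, Fabp5, a fatty acid binding protein of scar-associated macrophages, stood at 0.810, 8.80 and 17.8, and Apoe at 60, 159 and 192. Vcam1 stood at 14.0 and 14.9 in the first pair and at 5.50 in all 557. H2-Aa was at 3.45, 2.95 and 8.67. Ly6c monocytes, with at least 4 UMIs of Ly6c2, Chil3, F13a1 and Vcan, no Clec4f and C1q under 20 per 10000, number 186 normal and 55 fibrosis cells. They had H2-Aa at 14.7 and 9.42 and Timd4 at 0.0159 and 0.197. The groups differ in the very genes that parted them, so these levels are given without a comparison of their own.

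**Figure D5:**
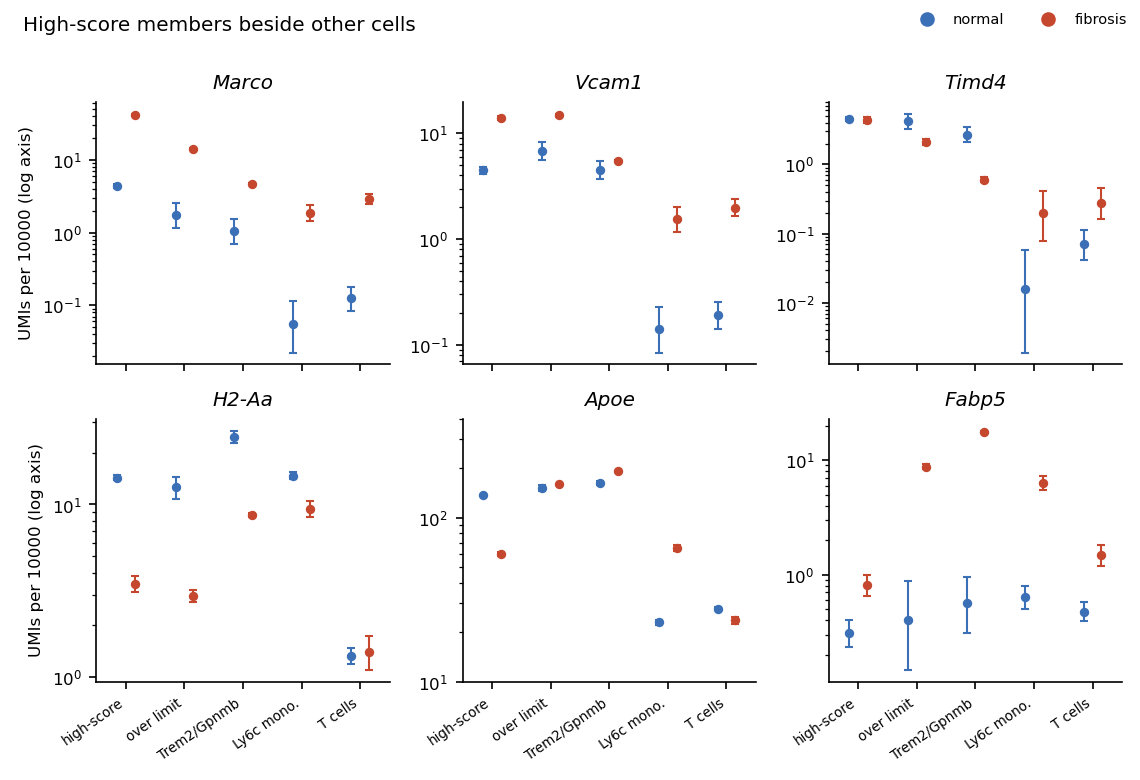
Levels of 6 genes in UMIs per 10000 (log axes) with exact 95% Poisson intervals, in high-score members, high-score cells over the Trem2 and Gpnmb limit, all Trem2 and Gpnmb macrophages (which include the former), Ly6c monocytes and T cells of the 2 libraries. In the fibrosis library Marco and Timd4 step down from left to right over the first 3 groups, Fabp5 and Apoe step up, and H2-Aa is low in the first pair, at 3.45 and 2.95.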

How the data were processed

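The authors aligned 10x Chromium 3′ (version 3) reads to mm10 with Cell Ranger 3.0.1 and deposited raw UMI counts per gene and cell, 1 table per library. The tables hold 8130 normal and 6437 fibrosis cells, with medians of 4144 and 5619 UMIs. Doublets were not removed here, and the methods state that Scrublet was used for it. The 10% mitochondrial limit left out 659 and 305 cells.

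The members and gene lists (28 lists) were chosen with earlier results of these data known. The score limit of 80, the 3-times background rule and the class II motifs were chosen after the values had been seen. Counts were summed over the cells of a group and given per 10000 UMIs. With 1 library per group no test was made, since cells of 1 mouse are no replicates, and a count of 0 is given with a limit of 3 counts. B cells held at least 15 per 10000 of Cd79a, Cd79b and Ms4a1 and no UMI of Cd3d, Cd3e, Cd3g or Trbc2, and T cells the reverse, and those that were not members give the levels of free RNA. Over all members, named genes are the 10 largest and 10 smallest ratios among called genes that lie 1 or more log2 units away from their own log2 ratio in B, T and NK cells (773 normal and 70 fibrosis cells) and whose 3 leading cells hold at most 25% of the UMIs. Among high-score members, called genes at 3 times background or more are named by the same limit on 3 cells. From each list, genes past the call rule or well known are named. Some genes that these rules name are not reported here. Mitochondrial, ribosomal protein, haemoglobin and immunoglobulin genes were tested but not named by these rules, and the 12 rule genes were not tested. Gene positions are from GENCODE (GRCm38). Python 3.11.15, numpy 2.4.6, scipy 1.17.1, pandas 2.3.3 and matplotlib 3.10.9 were used, with edgeR 4.0.16 in R 4.3.3 for TMM scaling only. The scripts were tested on simulated data. Alternatives changed scaling, depth, limits of the rule and the minimum level.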

Additional observations from a re-analysis of the deposited data

How the results depend on the processing

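With 1 mouse per condition, no alternative replaces a replicate, and the limits below are those of counting and of the rule. The shares of Kupffer cells turned on the rule. At score limits of 10, 40 and 80 they were 8.00%, 5.17% and 4.02% of normal and 15.9%, 4.60% and 1.94% of fibrosis cells, and at an endothelial limit of 10 they were 5.29% and 5.17%. The fibrosis share was 6.39% with at least 2 Clec4f UMIs, 14.2% with no limit on Trem2 and Gpnmb, 17.0% at a mitochondrial limit of 5% and 11.4% without the deepest 10% of cells.

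Counts of called genes moved with depth and scaling. Over all members, beside 177 higher and 128 lower genes, there were 73 and 569 per cell, 440 and 258 by the mean over cells, 460 and 267 in thinned cells, 374 and 216 at a minimum level of 0.5, 58 and 80 at a minimum of 2, 389 and 207 at a mitochondrial limit of 5%, and 366 and 217 without the deepest 10% of members. The higher genes were 112 with no limit on Trem2 and Gpnmb, 111 at an endothelial limit of 10 and 89 at a score limit of 40. Among high-score members, beside 48 higher and 102 lower genes, there were 216 and 169 in thinned cells, 112 and 186 at a minimum level of 0.5, 21 and 57 at a minimum of 2, and 234 and 172 at a mitochondrial limit of 5%. The higher genes were 398 per cell, 114 by the mean over cells, 80 with Trem2 and Gpnmb at 0 and 74 with no limit on them. The alternatives among high-score members, and the limit of 80 itself, were chosen after seeing the data.

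Of the 22 genes named among high-score members 0 changed direction under 15 alternatives, of which the minimum levels of 0.5 and 2 leave each ratio as it was. Marco, Atp1b3, Gpx3, Vcam1, Cd74, H2-Aa, H2-Ab1 and H2-Eb1 stayed past the 2-fold rule in all 15, with ratios of 5.74 to 13.7 for Marco and 0.145 to 0.342 for H2-Aa. For Atp1b3 no alternative left out the 18 fibrosis cells that hold 69.8% of its UMIs. Apoe was past it in 12, and its ratio ran from 0.397 to 0.905. No paired analysis was possible because the labels give no replicate numbers and each condition has 1 library.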
